A study of Mus musculus with 36 samples.

Results

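Oxidative phosphorylation was followed through 102 protein-coding genes, 13 on the mitochondrial genome and 89 on the nuclear chromosomes, of 52230 genes in the series. Members were taken by gene symbol alone: the symbols that start with mt- and the nuclear families Nduf (complex I), Sdh (complex II), Uqcr (complex III), Cox4 to Cox8 (complex IV) and Atp5 (complex V, ATP synthase). The mitochondrially encoded members comprised 7 subunits of complex I, 1 of complex III, 3 of complex IV and 2 of complex V. Grouped by symbol family, the nuclear members comprised 39 genes of complex I, 4 of complex II, 8 of complex III, 19 of complex IV and 19 of complex V. Ndufa4l2, a paralogue of a complex IV subunit, was thus counted under complex I. Cox5b-ps and the supercomplex factor Cox7a2l were counted under complex IV.

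RNA was sequenced from 36 monolayer cultures of hepatocytes of 3 female mice aged 14 weeks of the strain GCKR-P446L-EMI-B6N. Mice 1 and 2 were labelled Gckr-446L and mouse 3 Gckr-446P/L, and the study used these hepatocytes as deficient in GKRP, the glucokinase regulatory protein. All cultures were kept for 24 h with 5 mM glucose, 10 nM insulin and 10 nM dexamethasone, and then for 4 h with 25 mM glucose. The 10 conditions were untreated, adenoviral vectors for human GKRP-446P (hP), human GKRP-446L (hL), mouse GKRP-446P (mP) and mouse GKRP-446L (mL), glucokinase overexpression alone (GK), and GK with each of the 4 GKRP vectors. Untreated hepatocytes received no vector, so GKRP and the vector that carries it cannot be told apart in comparisons with them. GK was also expressed from an adenoviral vector, and no condition had an empty vector. GK and its vector therefore cannot be told apart in the same vector state with and without GK. GKRP vectors with GK against GK alone likewise differ by the added vector. Untreated and GK alone had 2 cultures for each mouse, which were summed, and the other conditions had 1, which gave 30 samples with the mouse as the replicate (n = 3 for each condition).

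The respiratory chain passes electrons from NADH through complex I, and from succinate through complex II, to ubiquinone, and then through complexes III and IV to oxygen. Complexes I, III and IV pump protons out of the mitochondrial matrix, and ATP synthase uses the returning protons to make ATP. Complex II is made of nuclear gene products alone, whereas the others need subunits from both genomes. The mitochondrial genome is transcribed from promoters on each strand into long precursors that are cut at the tRNAs, and mt-Nd6 is the one protein gene of the light strand. Hepatocytes are rich in mitochondria and draw on them for ATP, gluconeogenesis and urea synthesis.

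Libraries held between 3924674 and 10046158 reads (median 5980276). Levels are given in CPM (reads of a gene relative to the TMM-scaled library size). Gckr was at 39.2 to 845 CPM without a mouse GKRP vector and at 9010 to 23053 CPM with one, and human GCKR is outside the mouse reference transcripts. The 8 hepatocyte markers summed to 69473 to 135319 CPM, the 11 macrophage markers to 271 to 371 CPM, the 7 endothelial markers to 55.0 to 105 CPM, the 7 stellate cell and fibroblast markers to 24.5 to 161 CPM, the 4 cholangiocyte markers to 7.20 to 22.2 CPM and the 5 blood cell markers to 1.23 to 5.62 CPM. No marker gene was at 0 in all samples. GK with mP of mouse 1 stood apart from the other 29 samples, with 9175 CPM in nuclear members against 6047 to 7798 CPM, and 41247 CPM in cytosolic ribosomal protein genes against 21464 to 32246 CPM. Values without it are given for some of the results below, and other values also changed without it.

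A near-identical copy of 7 of the mitochondrially encoded members lies on nuclear chromosome 1, in a row of pseudogenes on the minus strand of GRCm39. The sequences are shown because the assignment of reads between member and copy set the counts of these members. Gm28661 carries 681 of the 684 bases of mt-Co2, the subunit of complex IV that takes electrons from cytochrome c, with 0 differing bases. The first 60 bases of both are printed 5′ to 3′, from chrM:7013-7072 on the plus strand and from chr1:24654587-24654646 on the minus strand.
mt-Co2: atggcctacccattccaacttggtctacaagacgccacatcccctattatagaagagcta
Gm28661: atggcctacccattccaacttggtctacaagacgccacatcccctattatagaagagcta
Gm28438 carries 345 of the 348 bases of mt-Nd3, a membrane subunit of complex I, with 1 differing base, T3C, counted from 1 at the 5′ end of the gene and marked by a capital. The stretches lie at chrM:9459-9519 (plus strand) and chr1:24652140-24652200 (minus strand).
mt-Nd3: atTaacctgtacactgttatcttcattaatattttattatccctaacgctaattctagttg
Gm28438: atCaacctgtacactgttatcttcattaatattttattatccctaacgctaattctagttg
Gm29216 carries 483 of the 1545 bases of mt-Co1, the catalytic subunit of complex IV, with the single difference A1066T. These stretches lie at chrM:6390-6450 (plus strand) and chr1:24655209-24655269 (minus strand).
mt-Co1: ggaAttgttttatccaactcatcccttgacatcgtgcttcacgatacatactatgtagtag
Gm29216: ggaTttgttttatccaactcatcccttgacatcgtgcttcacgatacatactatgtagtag
The other 4 copies had 0 differing bases. Atp6-ps covers 99.56% of mt-Atp6, Gm28437 99.87% of mt-Co3, Gm10222 98.99% of mt-Nd4l and Gm28439 63.57% of mt-Nd4.

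The reads of these genes were divided between member and copy in shares that varied from culture to culture. In mt-Co2 the member received a median of 7.98% of the shared reads over 36 cultures. One culture, the second of mouse 1 with GK alone, gave 100% to mt-Co2, at 3450 CPM against 0 CPM for Gm28661, and the next highest share was 18.5%. mt-Co2 therefore ranged from 112 to 3450 CPM with a coefficient of variation of 1.08, whereas the sum of member and copy ranged from 3164 to 6260 CPM with a coefficient of 0.161. For mt-Atp6, a proton channel subunit of ATP synthase, the share of the member ran from 9.29% to 100%, and its coefficient of variation fell from 0.509 alone to 0.164 with the copy. For mt-Co3 the share ran from 9.94% to 100% (coefficients 0.466 and 0.174) and for mt-Nd3 from 5.13% to 68.0% (0.608 and 0.195). mt-Nd4 and mt-Co1, which share a part of their length only, varied less (0.185 and 0.135 for mt-Nd4, 0.202 and 0.191 for mt-Co1). In every one of the 7 genes the sum varied less than the member alone.

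**Figure D1:**
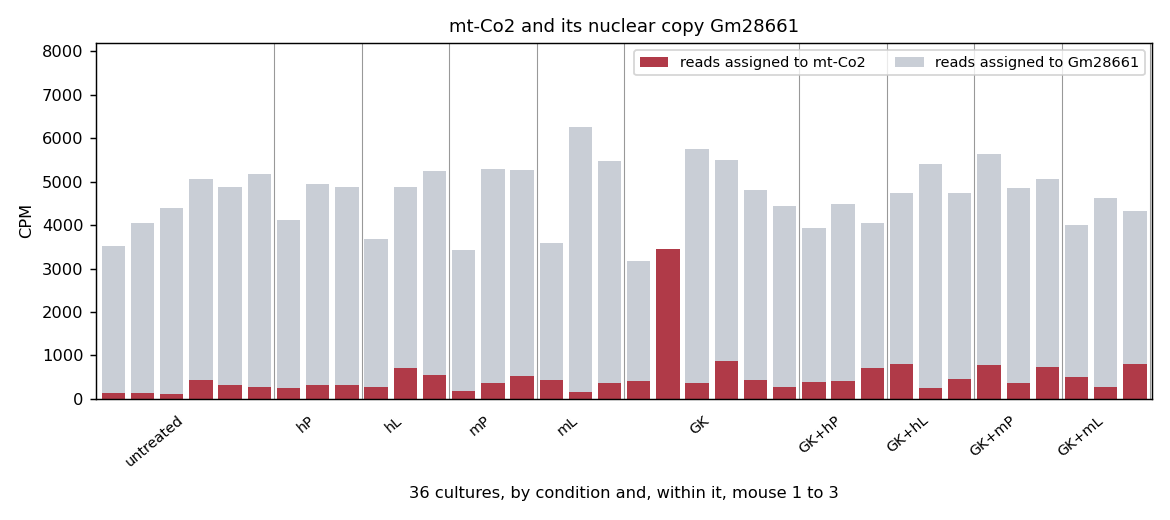
CPM assigned to mt-Co2 (red) and to its nuclear copy Gm28661 (grey) in each of the 36 cultures, stacked, in the order of the conditions and of mice 1 to 3 within them. The bar that is wholly red is the second culture of mouse 1 with GK alone, at 3450 CPM, while the summed height of all bars stayed between 3164 and 6260 CPM.

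Per kilobase of gene, and with the copies added, mt-Co1 was the highest of the 13 in these samples, with a median of 23874 CPM per kb over 30 samples (range 16906 to 35861). mt-Co2 followed at 6949 CPM per kb, mt-Atp6 at 6670 CPM per kb and mt-Nd1 at 6473 CPM per kb, and the ranges of these 3 overlapped. mt-Nd3 was the lowest at 640 CPM per kb (range 420 to 1089). mt-Nd6, the gene of the light strand, stood at 2672 CPM per kb (1788 to 4114), close to its heavy strand neighbour mt-Nd5 at 2502 CPM per kb (1648 to 3890). mt-Nd5 and mt-Nd6 overlap at their ends, and the strand setting of the read counting is not given in the sources used here. mt-Atp8 overlaps mt-Atp6 and mt-Nd4l overlaps mt-Nd4, so reads at these ends are uncertain too.

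**Figure D2:**
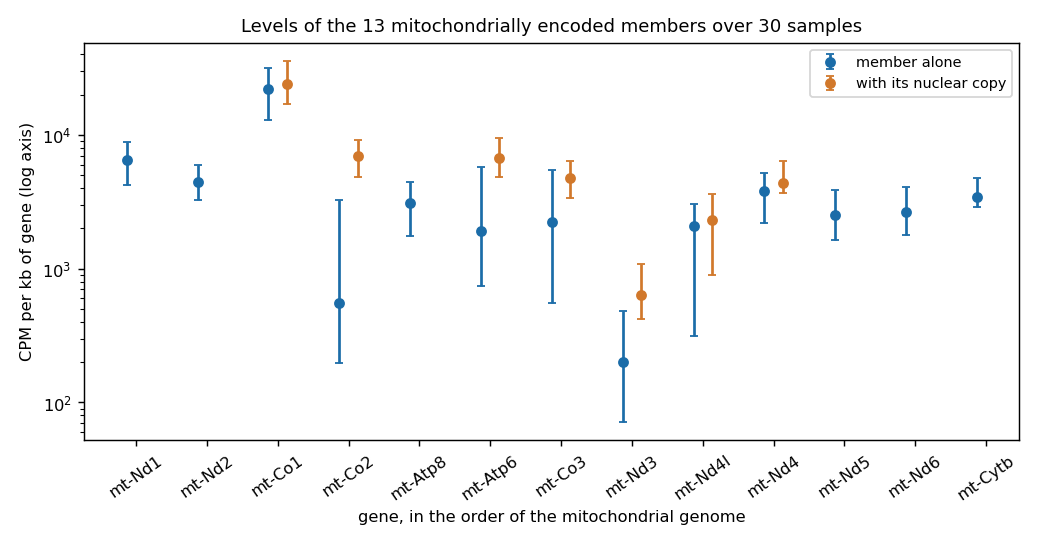
CPM per kb of gene, on a log axis, of the 13 mitochondrially encoded members in genome order; points are medians and bars the range over 30 samples, for the member alone (blue) and with its chromosome 1 copy (orange). With the copy mt-Co2 moved from a median of 552 to 6949 CPM per kb, and mt-Co1 stayed the highest in both.

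Among nuclear members, 31 of the 89 gene identifiers shared at least 150 bases at 97% identity or more with another gene that reached 1 CPM in at least 1 library. Atp5mc2, which encodes the ring subunit c of ATP synthase, ranged from 0.325 to 72.5 CPM alone and from 52.2 to 95.4 CPM with its copies Gm70834 and Gm10175 on chromosome 7. Atp5mg ranged from 32.9 to 168 CPM alone and from 86.0 to 168 CPM with Gm10221. Cox7c ranged from 22.3 to 120 CPM alone and from 76.1 to 156 CPM with Gm12338, and Atp5mc1 from 19.9 to 82.1 CPM alone and from 46.9 to 82.1 CPM with Gm10039. These nuclear copies were chosen after their values were seen. The symbol Atp5po stands for 2 gene identifiers; ENSMUSG00000022956 was at 72.6 to 137 CPM, whereas ENSMUSG00000116933 was at 0 to 2.95 CPM.

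As deposited, the 13 mitochondrially encoded members held 4.70% to 7.78% of all reads (median 6.42%), and the 89 nuclear members 0.586% to 0.870% (median 0.669%). With the chromosome 1 copies the mitochondrial share was 6.23% to 9.97%. The mitochondrial share was 4.70% to 6.13% in the 12 cultures of mouse 1, 5.14% to 7.59% in those of mouse 2 and 6.12% to 7.78% in those of mouse 3. Mouse 1 and mouse 3 overlapped by a narrow margin. Each mouse is 1 animal, so the difference between mice has no test. In TPM, which divides by the effective length that Salmon estimated in each library, the same 13 genes took from 1.19% to 27.2%, a wider range than their share of reads, and the comparisons below rest on reads. The part of the estimated lengths in that range was not tested.

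**Figure D3:**
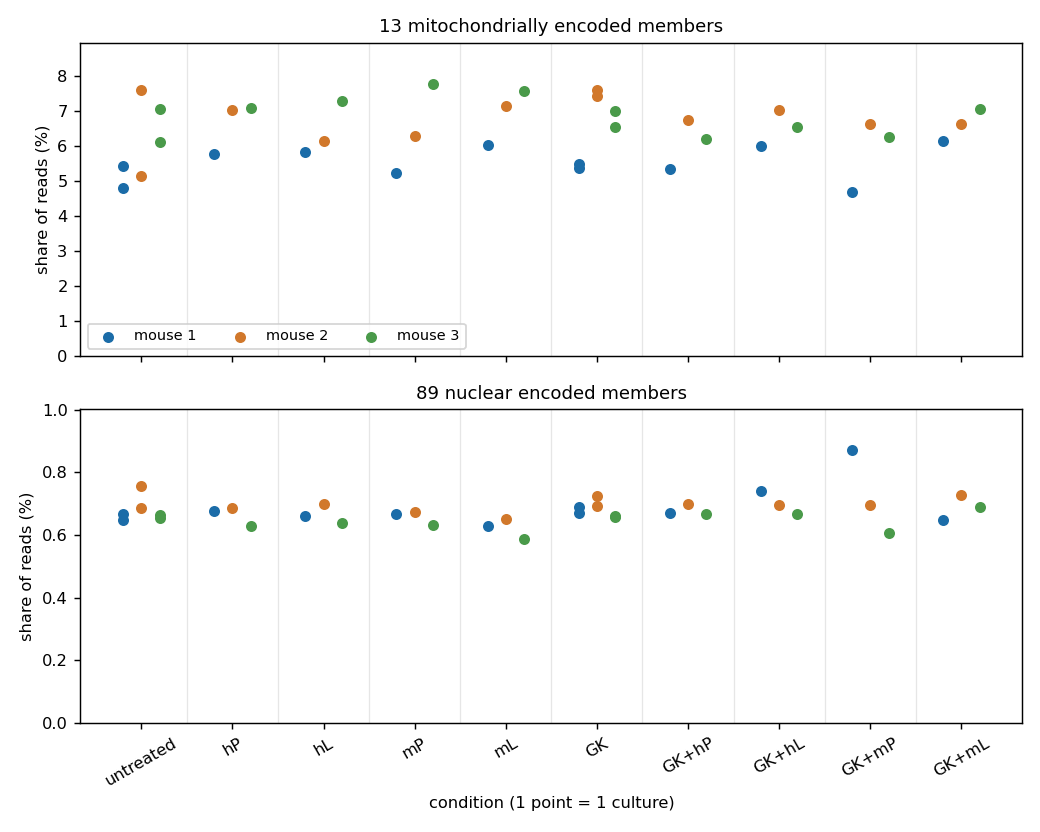
Share of reads, in percent, of the 13 mitochondrially encoded members (top) and the 89 nuclear members (bottom) in each of the 36 cultures, by condition and coloured by mouse; both axes start at 0. Mouse 1 lies at 4.70% to 6.13% in the upper panel, and in the lower panel GK with mP of mouse 1 lies highest at 0.870%.

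A test across all genes covered 93 members, all 13 mitochondrially encoded and 80 of the 89 nuclear ones, among 12177 genes. The 9 that were too low for it were all nuclear. Cox8b, known as a heart and skeletal muscle isoform, and the testis isoforms Cox8c and Cox7b2 were at 0 in all 30 samples. Cox4i2, Cox6a2, Cox6b2, Cox5b-ps and Ndufb11b reached 0.514 CPM at most, and Cox7a1, the heart and muscle isoform, reached 1.05 CPM. The medians of the nuclear members tested ran up to 857 CPM in Atp5f1b, the catalytic beta subunit of ATP synthase, with 594 CPM in Atp5f1a, the alpha subunit, and 276 CPM in Cox4i1. The 4 subunits of complex II had medians of 277 CPM (Sdha, the flavoprotein), 68.8 CPM (Sdhb, the iron-sulphur subunit), 56.4 CPM (Sdhc) and 116 CPM (Sdhd), the last 2 being the membrane anchors. These values are per gene and not per length.

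The question of GK overexpression against endogenous GK was addressed in 3 ways. Calls were made with edgeR's quasi-likelihood test and needed both an adjusted p below 0.05 and a fold of 1.3 or more, or of 0.7 or less. In GK alone against untreated hepatocytes 0 of 93 members were called, where 0.00821% of all genes tested were. At an unadjusted p under 0.05 there was 1 member, mt-Co2, and DESeq2 called that member at an adjusted p of 0.0247. The nuclear members had a median log2 fold change of 0.04 with 51 of 80 higher, and 28 of 80 were higher under a correction for transcript length, where the median was -0.10. In complex II the log2 fold change was 0.07 (SE 0.13) for Sdhc and 0.0027 (SE 0.11) for Sdha. Of the nuclear members, the 5 with the smallest p were Uqcrq at 0.42 (SE 0.31), Ndufa8 at 0.22 (SE 0.16), Ndufb6 at 0.21 (SE 0.16), Ndufa2 at 0.29 (SE 0.23) and Ndufb4 at -0.34 (SE 0.30). Their edgeR adjusted p was 1.0 in each.

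In GK alone against the 5 combined conditions without GK, 1 of 93 members was called, where 0.427% of all genes were. It was mt-Co2, at a log2 fold change of 1.68 (SE 0.39, edgeR adjusted p = 0.0484). mt-Co2 was at 2236, 708 and 366 CPM in mice 1, 2 and 3 with GK alone, and between 134 and 713 CPM in the 15 samples without GK, so the high value was that of mouse 1 alone, 1 of whose cultures gave all reads of the pair to mt-Co2. With the second culture of mouse 1 left out the log2 fold change was 0.53 (edgeR adjusted p = 0.863). With the reads of Gm28661 added it was -0.06 (edgeR adjusted p = 0.9996). Leaving out GK with mP of mouse 1 gave 1.68 with an adjusted p of 0.0571. The nuclear members had a median of 0.08 with 69 of 80 higher, against -0.01 over all genes and 5793 of 12177 higher. Under the correction for transcript length the nuclear median was -0.05 with 33 of 80 higher, and that of all genes -0.07. Sdhc was at 0.20 (SE 0.10, adjusted p = 0.642), Ndufb6 at 0.21 (SE 0.12) and Ndufs3, a subunit of complex I, at 0.15 (SE 0.10), each higher in 3 of 3 mice and none past the test. Ndufc2 and Atp5mc3 were at 0.16 and 0.18 (SE 0.12 and 0.13). mt-Cytb, the mitochondrially encoded subunit of complex III, which has no such copy, was at -0.22 (SE 0.11, adjusted p = 0.669) and lower in 3 of 3 mice.

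In the mean over the 5 vector states with GK against the 5 without, 0 of 93 members were called, where 0.0903% of all genes were. At an unadjusted p under 0.05 there were 24 members, 21 of them nuclear. That is 26.2% of the 80 nuclear members, beside 7.07% of all 12177 genes (41.2% and 18.2% with the mouse as a block). The nuclear members had a median log2 fold change of 0.10 with 72 of 80 higher, against 0.0007 over all genes, of which 6122 were higher. By complex the nuclear medians were 0.15 in complex I, 0.08 in complex II, 0.09 in complex III, 0.11 in complex IV and 0.08 in complex V. The mitochondrially encoded members lay on the other side, with a median of -0.09 and 10 of 13 lower. Without mouse 3 their median was -0.0014 with 6 of 13 higher. With copies added their median was -0.11 and 12 of 13 were lower, mt-Nd3 at 0.02 being the exception.

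The nuclear shift was smaller without 1 sample. Without GK with mP of mouse 1 the nuclear median was 0.06 with 67 of 80 higher, and 9 nuclear members had an unadjusted p under 0.05 (11.2%, beside 5.48% of all genes). That sample also had the highest cytosolic ribosomal protein reads, given above, and the part of what sets it apart in the shift was not tested. Without all of mouse 1 the nuclear median was 0.04 with 54 of 80 higher. Without mouse 2 it was 0.15 with 75 higher, and without mouse 3 0.14 with 77 higher. The share with an unadjusted p under 0.05 was then 18.8%, 11.2% and 11.2% (all genes 11.2%, 6% and 2.43%). Under the correction for transcript length the nuclear median was 0.20 with 70 higher, against 0.03 over all genes. Cytosolic ribosomal protein genes had a median of 0.11 in this comparison with 68 of 76 higher, and mitochondrial ribosomal protein genes 0.07 with 68 of 78 higher, 2 families that were added after the values were seen. Summed over the 89 nuclear members the log2 difference was 0.18, 0.04 and 0.04 in mice 1, 2 and 3 (0.09 ± 0.08, SD, n = 3), and 12 of 15 pairs of the same mouse and vector were higher with GK. Without the sample it was 0.06 ± 0.03 (SD, n = 3). Without the chromosome 1 copies the mitochondrial sum differed by 0.03, 0.07 and -0.17 in mice 1, 2 and 3 (-0.02 ± 0.13, SD, n = 3), lower in mouse 3 alone, with 7 of 15 pairs higher. The ratio of the 2 sums differed by -0.11 ± 0.13, so neither exceeded the spread between mice. With the copies some pairs turned, so these directions depend on the split of reads. Untreated and GK alone were at 51035 and 52703 CPM in mouse 1 without copies, and at 64057 and 60991 CPM with them. In mouse 3 they were at 65756 and 69251 CPM, and at 85553 and 84293 CPM with copies. For mP without and with GK, mouse 1 was at 49773 and 49537 CPM, and at 59639 and 71874 CPM with copies.

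The 5 nuclear members with the smallest p in this comparison were accessory subunits of complexes I and IV. Ndufa8 was at 38.1, 48.1 and 41.7 CPM in untreated mice 1 to 3 and at 38.9, 53.9 and 56.0 CPM with GK alone, so the groups overlapped. Its log2 fold change over the 5 vector states was 0.25 (SE 0.07, edgeR adjusted p = 0.380). Ndufa7 was at 0.33 (SE 0.09, adjusted p = 0.400), Cox6a1 at 0.27 (SE 0.08, adjusted p = 0.481), Ndufa2 at 0.31 (SE 0.10, adjusted p = 0.551) and Cox8a, an accessory subunit of complex IV, at 0.20 (SE 0.07, adjusted p = 0.579). All 5 were higher in 3 of 3 mice, the same mice whose values gave the p they were picked by. With the mouse as a block in edgeR, Cox8a had an adjusted p of 0.0398 at a log2 fold change of 0.21 and Ndufa7 0.0436 at 0.34, both under a fold of 1.3, so the number called stayed at 0. The highest value of each was that of GK with mP of mouse 1, at 73.5 CPM in Ndufa8, 54.4 CPM in Ndufa7, 173 CPM in Cox6a1 and 90.2 CPM in Cox8a. Without that sample the log2 fold changes were 0.22 in Ndufa8, 0.29 in Ndufa7, 0.21 in Cox6a1, 0.21 in Ndufa2 and 0.17 in Cox8a, with edgeR adjusted p from 0.560 (Ndufa8) to 0.805 (Cox8a). With the block and without the sample the adjusted p was 0.0115 in Cox8a and 0.0633 in Ndufa7.

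**Figure D4:**
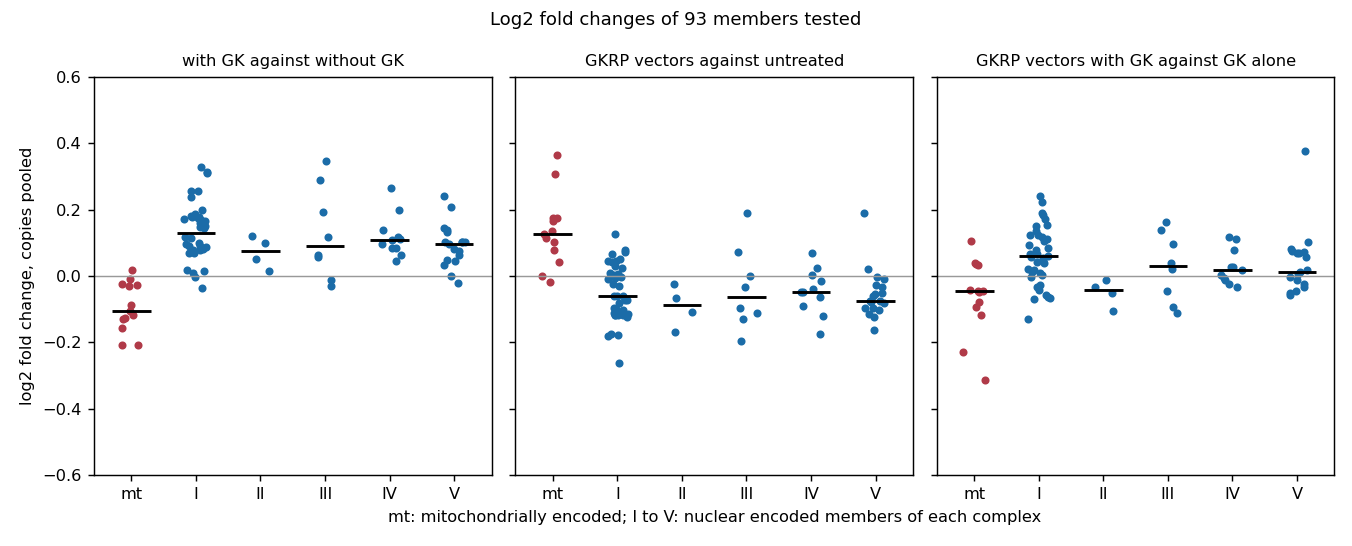
Log2 fold changes of the 93 members tested in 3 comparisons, with reads of near-identical copies added to 12 members; red points are the 13 mitochondrially encoded members, blue points the nuclear members of complexes I to V, and bars the medians. The 2 points of Atp5po (ENSMUSG00000116933), at -2.22 with GK and -1.63 with GKRP vectors and GK, lie outside the axis; the nuclear medians lie above 0 and the mitochondrial median at -0.11 in the left panel, with 0 members called.

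Nuclear respiratory genes are known targets of NRF1 and of ETS factors, and RefSeq promoters (250 bases before to 50 after the start, GRCm38.p6) were matched for 55 of 88 nuclear symbols. The NRF1-type motif (GCGC, any base, then TGCGC), on either strand, was in 11 of the 55 and in a promoter of 5.19% of 27025 genes. The ETS core CCGGAAG, on either strand, was in 11 of the 55 and in 9.93% of all, and TATAAA in 6 of the 55 and in 15.7% of all. The promoter of Cox6a1 is printed because it holds both motifs and the gene is among those with the smallest p above. It lies at chr5:115348909-115349208 on the minus strand of GRCm38.p6, and capitals mark the matches, which are a description of the letters and not of binding.
Cox6a1: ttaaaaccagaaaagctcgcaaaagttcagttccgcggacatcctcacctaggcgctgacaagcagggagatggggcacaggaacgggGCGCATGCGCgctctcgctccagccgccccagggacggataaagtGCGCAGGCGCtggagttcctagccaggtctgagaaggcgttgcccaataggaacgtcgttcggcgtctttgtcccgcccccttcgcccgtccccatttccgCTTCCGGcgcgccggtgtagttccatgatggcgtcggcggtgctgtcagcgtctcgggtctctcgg
The promoter of Ndufa8, the nuclear member with the smallest p, lies at chr2:36049289-36049588 on the minus strand of the same build and holds 1 match to the NRF1-type motif.
Ndufa8: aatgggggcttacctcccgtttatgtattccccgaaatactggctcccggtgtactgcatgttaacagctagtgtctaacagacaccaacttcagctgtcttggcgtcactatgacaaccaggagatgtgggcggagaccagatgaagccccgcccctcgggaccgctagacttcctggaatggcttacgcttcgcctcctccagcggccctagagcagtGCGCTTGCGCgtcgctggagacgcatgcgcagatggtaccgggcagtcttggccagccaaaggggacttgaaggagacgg

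The effect of GKRP was read as the mean of the 4 vectors against untreated hepatocytes and, with GK, against GK alone. Against untreated hepatocytes 0 of 93 members were called, where 1.89% of all genes were, and 2 had an unadjusted p under 0.05. With the mouse as a block 1 member was called, Ndufb4, an accessory subunit of complex I. Ndufb4 was at 4.26, 7.95 and 7.75 CPM in untreated mice 1 to 3. It was at 2.87, 2.59 and 2.91 CPM with mP and at 2.40, 3.67 and 2.18 CPM with mL. With hP it was at 4.35, 4.83 and 5.04 CPM and with hL at 9.84, 8.25 and 3.27 CPM. The mouse vectors thus lay below all untreated samples and the human vectors overlapped with them. The log2 fold change of the mean was -0.74 (SE 0.23, edgeR adjusted p = 0.128), and -0.77 (SE 0.23, adjusted p = 0.0411) with the block. Ndufb4 has 390 bases in common with the pseudogene Ndufb4c on chromosome 15 at 100% identity. With its reads added Ndufb4 was at 24.4, 21.8 and 20.05 CPM in untreated hepatocytes and 15.8 to 31.2 CPM over all samples, and the log2 fold change was -0.12 (SE 0.12, edgeR adjusted p = 0.985).

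The nuclear members had a median of -0.06 with 59 of 80 lower, and the mitochondrially encoded ones 0.17 with 12 of 13 higher, against -0.0014 over all genes. With copies added the mitochondrial median was 0.13 with 11 of 13 higher. mt-Atp6 alone was at 0.96 (SE 0.40, edgeR adjusted p = 0.360) and, with Atp6-ps added, at 0.17. mt-Atp8, which has no separate copy but is overlapped at its end by Atp6-ps, was at 0.37 (SE 0.25, adjusted p = 0.822). The other nuclear members with the smallest p were Sdhc at -0.17 (SE 0.11), Uqcrh, the hinge protein of complex III, at -0.20 (SE 0.14), Ndufb10 at -0.18 (SE 0.13) and Cox6c at -0.18 (SE 0.13).

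With GK, the 4 GKRP vectors against GK alone gave 0 of 93 members called, where 1.61% of all genes were, and 2 members with an unadjusted p under 0.05. The nuclear median was 0.03 with 50 of 80 higher, and it was -0.03 with 31 of 80 higher without GK with mP of mouse 1, so the direction rested on that sample. The mitochondrial median was -0.12 with 11 of 13 lower, and -0.05 with copies added. mt-Co2 alone was at -1.03 (SE 0.42, edgeR adjusted p = 0.353) and, with Gm28661 added, at 0.04. Atp5if1, the inhibitor that blocks ATP hydrolysis by ATP synthase, had the smallest p of the nuclear members, at 0.38 (SE 0.17, adjusted p = 0.463). Atp5if1 was at 12.8, 11.8 and 10.5 CPM with GK alone and at 25.7, 17.2 and 13.8 CPM with GK and mP, where all 3 mice lay above the GK samples. For mP alone among the vectors, singled out after its values were seen, the log2 fold change was 0.70 (SE 0.22, edgeR adjusted p = 0.125) and, with the block, 0.68 (SE 0.18, adjusted p = 0.0188), a call. Without GK with mP of mouse 1 it was 0.41 (SE 0.22, edgeR adjusted p = 0.748), and 0.48 (SE 0.19, adjusted p = 0.181) with the block, so that call rested on 1 sample. The other members with the smallest p were Ndufa3 at 0.18 (SE 0.12), Ndufa5 at 0.22 (SE 0.17), Ndufa8 at 0.17 (SE 0.13) and Ndufa10 at 0.12 (SE 0.09).

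The P446L substitution was addressed by hL and mL against hP and mP, at both GK levels. In it 0 of 93 members were called, where 0.00821% of all genes were, and 1 member had an unadjusted p under 0.05. That member was Atp5po (ENSMUSG00000116933), at 2.95 CPM or less in every sample. The nuclear median was -0.0017 with 40 of 80 higher. Without GK with mP of mouse 1 it was 0.05 with 60 of 80 higher. Then 4 nuclear members had an unadjusted p under 0.05 (5%, beside 3.88% of all genes). The mitochondrial median was 0.05 with 11 of 13 higher. Without the chromosome 1 copies the mitochondrial sum was higher with 446L in 10 of 12 pairs and by 0.19, 0.08 and 0.06 on the log2 scale in mice 1 to 3 (0.11 ± 0.07, SD, n = 3). With the copies fewer pairs were higher. GK with mL then lay below GK with mP in mouse 2 (84940 against 85481 CPM) and in mouse 3 (74389 against 79085 CPM). The median over the 13 members was 0.03 in place of the sum, in which mt-Co1 weighs most. Ndufb4 was at 0.28 (SE 0.16), Ndufc1 at 0.16 (SE 0.12), Ndufa6 at 0.12 (SE 0.09) and Atp5if1 at -0.14 (SE 0.11), all with an edgeR adjusted p of 1.0. Cox7a2l, a factor of supercomplex assembly, was at 0.03 (SE 0.07).

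Whether GKRP acted differently with and without GK was tested as a difference of differences. In it 0 of 93 members were called, as were 0% of all genes (178 genes had an unadjusted p under 0.05, and DESeq2 called 20), and 2 members, mt-Co2 and mt-Atp6, had an unadjusted p under 0.05. mt-Co2 was at -1.65 (SE 0.65) and mt-Atp6 at -1.25 (SE 0.53), both with an edgeR adjusted p of 1.0, and both are genes whose reads were divided with a copy. With copies added mt-Co2 was at -0.04 and mt-Atp6 at -0.14. The mitochondrial median was -0.36 alone and -0.16 with copies, and the nuclear median 0.08 with 70 of 80 higher. Without GK with mP of mouse 1 the nuclear median was 0.02 with 51 of 80 higher. The 5 nuclear members with the smallest p were Ndufb4 at 0.69 (SE 0.34), Ndufa5 at 0.40 (SE 0.23), Cox7c at 0.66 (SE 0.44), Ndufa6 at 0.27 (SE 0.19) and Ndufb10 at 0.26 (SE 0.19), none of them past the test. Among the mitochondrial members with no copy of their own, mt-Nd6 lay farthest from 0, at -0.48 (SE 0.26).

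Ndufa4l2, a paralogue of the complex IV subunit Ndufa4 that is known to be induced in hypoxia, stood at separate levels in the 3 mice. It was at 2.92 to 5.82 CPM in the 10 samples of mouse 1, at 29.3 to 44.8 CPM in those of mouse 2 and at 14.4 to 22.4 CPM in those of mouse 3. These ranges did not overlap. Its log2 fold change was between -0.26 (SE 0.84) and 0.24 (SE 0.56) in the 7 comparisons. Some cell type markers followed the same order of mice, and others did not. The 7 stellate cell and fibroblast markers summed to 24.5 to 42.4 CPM in mouse 1, 127 to 161 CPM in mouse 2 and 71.2 to 96.7 CPM in mouse 3. In that list the order was that of Reln, at 5.36 to 18.3, 107 to 141 and 27.1 to 44.2 CPM. The other 6 markers summed to 16.8 to 26.8, 16.9 to 21.1 and at least 43.5 CPM, highest in mouse 3, and the defining markers Lrat and Des reached 2.27 and 0.717 CPM at most. The hepatocyte markers summed to 69473 to 94529 CPM in mouse 1, 113134 to 135319 CPM in mouse 2 and 90528 to 107209 CPM in mouse 3. Among them Cps1, the first enzyme of the urea cycle, was at 173 to 262, 823 to 1118 and 324 to 448 CPM, with no overlap. Asgr1, also of that list, was lowest in mouse 3, at 159 to 271, 177 to 232 and 109 to 152 CPM. The macrophage marker Cd68 was at 119 to 141, 204 to 275 and 195 to 242 CPM, and the endothelial marker Stab2 at 7.96 to 15.9, 20.9 to 29.8 and 16.7 to 25.2 CPM, both lowest in mouse 1 and overlapping between mice 2 and 3. The macrophage marker Cd5l was highest in mouse 1, at 39.1 to 47.8, 13.4 to 22.2 and 19.7 to 25.3 CPM. The summed macrophage markers overlapped between all mice, at 271 to 332, 280 to 366 and 304 to 371 CPM. The summed endothelial markers were highest in mouse 3, at 55.0 to 82.8, 66.3 to 76.0 and 96.6 to 105 CPM. The part of any cell type in the level of Ndufa4l2 was not tested, and fewer cells of a type and less RNA per cell cannot be told apart in bulk samples.

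**Figure D5:**
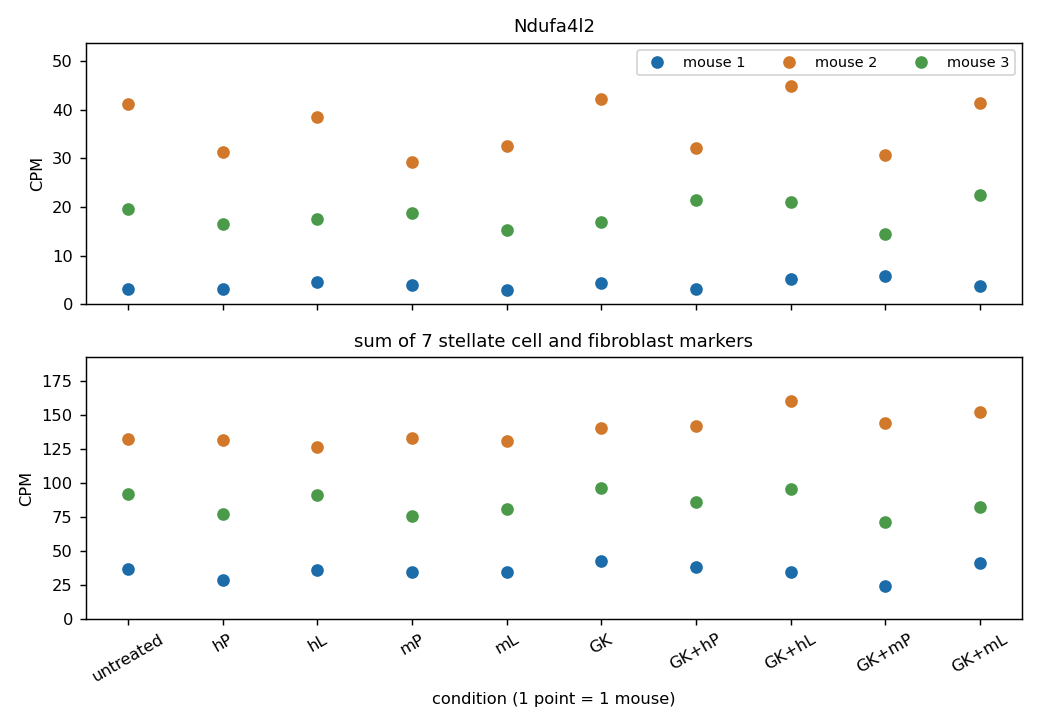
CPM of Ndufa4l2 (top) and summed CPM of 7 stellate cell and fibroblast markers, of which Reln is the largest in mouse 2 (bottom), in each condition, 1 point for each mouse; axes start at 0. Mouse 1 lies at 2.92 to 5.82 CPM, mouse 3 at 14.4 to 22.4 CPM and mouse 2 at 29.3 to 44.8 CPM of Ndufa4l2 in all 10 conditions.

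Of the genes that serve the pathway, 4 lists were counted. Among 30 genes of mitochondrial DNA and RNA maintenance, 28 were tested, and 2 rose and 0 fell with the GKRP vectors against untreated hepatocytes, where 1.89% of all genes were called (181 higher and 49 lower). They were Tfam, which packages mitochondrial DNA and starts its transcription, and Trmt10c, a subunit of the mitochondrial RNase P that cuts the precursor at the tRNAs. Tfam was at 28.5, 32.5 and 35.3 CPM in untreated mice 1 to 3 and between 34.8 and 48.4 CPM in the 12 samples with a GKRP vector, so 1 untreated sample lay within their range. Its log2 fold change was 0.39 (SE 0.09, edgeR adjusted p = 0.0231). With GK it was at 29.1, 32.6 and 33.8 CPM in GK alone and between 35.8 and 47.9 CPM with the vectors, with no overlap. There its log2 fold change was 0.37 (SE 0.09, adjusted p = 0.0291), just under the fold of 1.3, so it was not called. For mP alone among the vectors with GK, singled out after its values were seen, Tfam was at 0.46 (SE 0.11, edgeR adjusted p = 0.0314), a call. With the block that adjusted p was 0.0075. Trmt10c was at 42.7, 59.5 and 56.0 CPM in untreated hepatocytes and between 61.9 and 78.6 CPM with a GKRP vector, with no overlap. Its log2 fold change was 0.41 (SE 0.11, adjusted p = 0.0379). With GK, Trmt10c was at 41.3, 56.3 and 56.9 CPM in GK alone and between 53.0 and 71.7 CPM with the vectors. These ranges overlapped, and Trmt10c was not called there.

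The calls of Tfam and Trmt10c for the GKRP vectors against untreated hepatocytes were lost without any 1 of the mice. Leaving out each in turn gave 0.27 to 0.42 for Tfam (edgeR adjusted p from 0.193 to 0.369) and 0.27 to 0.53 for Trmt10c (adjusted p from 0.120 to 0.825). Without the second culture of mouse 1 with GK alone their adjusted p was 0.0530 and 0.0529. With the mouse as a block in edgeR both were called, at an adjusted p of 0.0065 for Tfam and 0.0133 for Trmt10c. Among 12 nuclear regulators of mitochondrial genes, 10 were tested and 0 were called. With the block, which called 506 of 12177 genes in this comparison, 1 was, Ppargc1b, a coactivator of NRF1 and related factors. Ppargc1b was at 0.297, 0.675 and 0.373 CPM in untreated hepatocytes and 0.852 to 2.02 CPM with the GKRP vectors, at 1.46 (SE 0.40, adjusted p = 0.0556, and 0.0243 with the block). Among 52 assembly factors and electron carriers (51 tested) and 13 genes of the tricarboxylic acid cycle, 0 were called in each of the 7 comparisons.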

How the data were processed

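The authors deposited, for each of 36 cultures, Salmon 1.4.0 output against mouse transcripts of Gencode M26 (GRCm39): expected counts (estimated reads, not normalized), TPM and effective lengths per transcript. The submitters' processing notes also name FastQC. Transcripts were paired with genes of Gencode M39 on the same build (137570 of 139225, 98.8%), and expected counts were summed per gene, over the 2 cultures of a mouse and condition, and rounded. The paired cultures were separate libraries, with a chi-square of 4.27 to 29.0 for each degree of freedom.

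Genes were filtered with filterByExpr, scaled with TMM (factors 0.901 to 1.09) and tested with the edgeR 4.0.16 quasi-likelihood F test in R 4.3.3, with Benjamini-Hochberg adjustment over 12177 genes. SEs were derived from the log2 fold change and the F statistic. The 5 combined conditions were 1 group in a model of 6 groups, and all other comparisons used 10 condition means. Samples of the same mouse come from the same animal. After subtraction of condition means the mean correlation was 0.223 within and -0.110 between mice, and the model with the mouse as a block was an alternative. DESeq2 1.42.0, RLE factors, other filters, single cultures, a length offset and each mouse left out were other alternatives. The test of with GK against without GK was also run on simulated counts. These had no mouse effect and no sharing of reads between copies, so they cannot check the tests for either. Intervals rest on the spread between 3 mice, and sums over members got no p. Copies of nuclear members were found with BLAST among transcripts (97% identity over 150 bases). The chromosome 1 copies were found with BLAST of transcripts of nuclear chromosomes against the mitochondrial genome, under a separate criterion.

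Members and lists were chosen with earlier results of these data known. Named were the 13 mitochondrially encoded members, complex II, tissue isoforms with the inhibitor and the supercomplex factor, in each comparison the called nuclear members or the 5 with the smallest p, and called genes of the lists. The level of 1 targeted gene is not reported here.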

Additional observations from a re-analysis of the deposited data

Results flagged for a closer look

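In each group of 6 cultures, untreated and GK alone, the highest or lowest culture was compared with the others in 46 series of values. By Dixon's criterion 2 lay apart, where chance gives about 1 in 20 if the 6 values are independent. Each group held 2 cultures of each mouse, so the values were not independent and the chance rate here is not known. Even at 1 in 20, 2 of 46 is no more than chance would give. mt-Co2 was at 3450 CPM in the second culture of mouse 1 with GK alone, where the next highest was 864 CPM and the lowest 278 CPM. The share of reads in the nuclear members was 0.756% in the first untreated culture of mouse 2, with 0.684% next and 0.649% lowest.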

How the results depend on the processing

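Counts of members called stayed at 0 or 1 in all settings. In GK alone against the 5 combined conditions the count of 1 went to 0 with a length offset, with copies pooled (with and without the mouse as a block), without the second culture of mouse 1 with GK alone, without GK with mP of mouse 1, and without each mouse in turn (0 to 0). In GK alone against untreated hepatocytes DESeq2 called 1, mt-Co2, which was the one member it called in the 7 comparisons, and with the mouse as a replicate block 1 was called for the GKRP vectors against untreated hepatocytes; the block also called Ndufb4 for mP and for mL against untreated hepatocytes and Atp5if1 for mP with GK, and changed no other count of members in the 7 comparisons or the single vectors. The log2 fold change of mt-Co2 turned its sign with copies pooled, to -0.056 in GK alone against the 5 combined conditions (-0.065 with the block), -0.023 with GK against without GK (-0.0092 with the block) and 0.040 with GKRP vectors and GK (0.068 with the block). It was -0.0048 in GK alone against untreated hepatocytes with copies pooled and the block, and 0.12 with GKRP vectors and GK without the second culture of mouse 1. For the sums, TPM gave 0.15 for the mitochondrial sum and 0.21 for the ratio with GKRP vectors, and -0.0895 for the mitochondrial sum with 446L. The first culture alone gave 0.065 and 0.11 with GKRP vectors, and the median over members gave 0.033 with 446L. For these the cause was not tested. The pooled copies and the cultures or single samples left out were chosen after seeing the data. Over all genes, 1, 52, 11, 230, 196, 1 and 0 were called in the 7 comparisons in the order of the report. The block gave 44, 242, 38, 506, 528, 59 and 0, DESeq2 32, 165, 34, 297, 301, 26 and 20, the 36 cultures as samples 39, 160, 14, 417, 384, 2 and 0, the length offset 0, 13, 3, 30, 27, 0 and 0, and no filter 6 in the first. Without 1 mouse the counts were 0 to 7, 8 to 64, 1 to 14, 39 to 140, 28 to 138, 0 to 1 and 0 to 1. Leaving out GK with mP of mouse 1 gave 1, 52, 8, 256, 213, 0 and 0 among 12453 genes tested.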
